A study of Mus musculus with 13 samples.

Results

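The C-type lectins and collectins examined here are 9 genes chosen by name, Clec7a, Colec12, Klrb1b, Clec4a1, Clec4a2, Clec4a3, Clec4n, Clec5a and Clec12a, out of the 52636 genes counted in RNA-Seq data of sorted brain myeloid cells. The cells were CD11b+ CD45+ Ly6g- Ccr2- cells, sorted by FACS from cortex and hippocampus at an age of 14 to 15 months. The mice were PS2APP mice, a plaque-forming model with transgenes for mutant human presenilin 2 and human amyloid precursor protein (APP). The 7 PS2APP;Trem2wt mice (5 females and 2 males) had intact Trem2, and the 6 PS2APP;Trem2ko mice (5 females and 1 male) were homozygous for the Trem2 null allele, which came from a C57BL/6N background and was crossed into PS2APP mice on C57BL/6J. Both groups carried the PS2APP transgenes, and no mouse without them was part of the comparison. Each mouse was 1 replicate, and none of the 9 genes was used to gate the cells. The comparison asks which lectin receptor transcripts of plaque-exposed microglia differed when Trem2, a microglial lipid and lipoprotein receptor that signals through the adaptor DAP12, was absent.

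C-type lectins share a fold that in many members binds sugars in the presence of calcium, and myeloid cells use them to recognise microbes, dying cells and altered self. Members that carry an activating tyrosine motif, or pair with the adaptors DAP12 (Tyrobp) or FcRγ (Fcer1g), signal through the kinase Syk and the scaffold Card9, while members with an inhibitory tyrosine motif recruit phosphatases such as SHP-1 (Ptpn6). Collectins join a collagen-like stalk to a lectin domain, and in microglia the lectin best known from plaque-associated cells is Clec7a.

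Each mouse had 26120961 to 120569609 reads counted on genes, and each count came with its nRPKM, which is the RPKM after scaling by a library size factor. Trem2 itself was measured at 818.4 to 1243.9 nRPKM in PS2APP;Trem2wt and at 0.393 to 2.29 nRPKM in PS2APP;Trem2ko mice. A list of 10 microglial markers summed to between 14672.4 and 18213.1 nRPKM in PS2APP;Trem2wt and between 15369.5 and 17216.0 nRPKM in PS2APP;Trem2ko mice. Of these 10 markers, 1 fell, Cx3cr1, the fractalkine receptor, from a mean of 1525.6 to 1087.6 nRPKM (log2 fold change -0.49, adjusted p = 0.0067 from edgeR), with 5 of 6 PS2APP;Trem2ko mice below every PS2APP;Trem2wt mouse. Lists for other cells in or near the gate were far lower. The 13 border macrophage markers summed to 15.3 to 45.2 against 26.6 to 66.2 nRPKM, and the 8 dendritic cell markers to 4.02 to 13.5 against 7.61 to 25.2 nRPKM, in PS2APP;Trem2wt and PS2APP;Trem2ko mice. The 8 monocyte markers had median sums of 7.17 against 6.07 nRPKM, and the 11 NK and T cell markers sums of 0.951 to 6.24 against 1.33 to 9.16 nRPKM. The 9 neutrophil markers summed to 15.0 to 264.8 against 0.149 to 46.3 nRPKM, with Ly6g itself at most 0.137 nRPKM in any mouse. No gene of these 5 lists passed the test described next.

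Clec7a, Klrb1b and Colec12 fell in PS2APP;Trem2ko microglia, and the other 6 lectins did not pass the test. The test was edgeR's quasi-likelihood test on the counts over the 17086 genes that passed an expression filter, with an adjusted p (Benjamini-Hochberg over all of them) of 0.05 or less. All 9 genes passed the filter, 3 were lower, 0 were higher (0 also at an unadjusted p of 0.05 or less, and 0 with voom+limma or DESeq2), and 2, Klrb1b and Colec12, were lower by at least 2-fold. Over all genes tested, 1.53% were lower, 0.503% were higher and 0.691% were lower by at least 2-fold at the same adjusted p. The 9 genes were chosen with earlier results of these data known, so setting their counts beside these shares tests nothing about lectins as a class. The median log2 fold change was -0.10 over the 9 genes and 0.00 over all genes tested. Whatever the size, 6 of the 9 lay below 0 on the log2 scale, as did 49.3% of all genes tested. In these bulk samples, fewer cells that express a gene and less of its RNA per cell cannot be told apart.

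**Figure D1:**
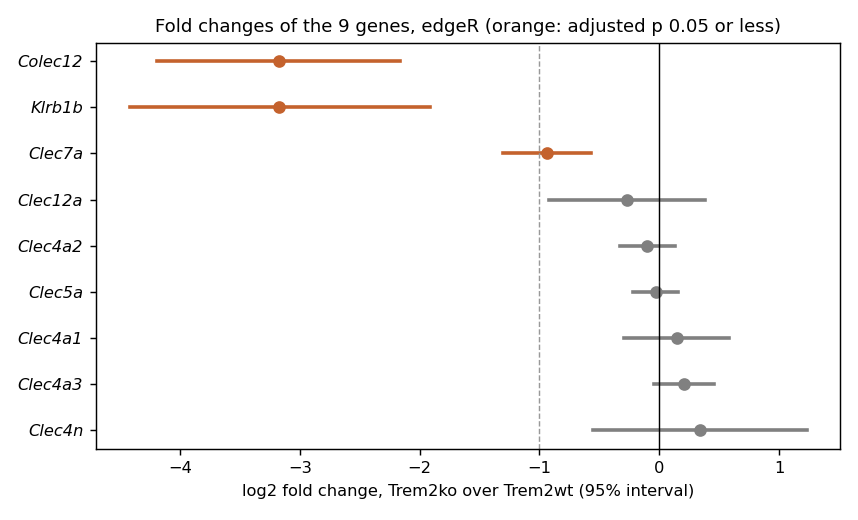
Log2 fold change of each of the 9 genes (x axis, PS2APP;Trem2ko over PS2APP;Trem2wt, edgeR) with its 95% interval as a bar, and a dashed line at a 2-fold decrease. The intervals of Colec12, Klrb1b and Clec7a lie below 0, and those of the other 6 genes include 0.

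Clec7a encodes Dectin-1, a receptor for β-glucan whose own cytoplasmic tyrosine motif engages Syk. GENCODE M21 places it on the minus strand of chromosome 6 of GRCm38, from 129461591 to 129472779, and lists it as a polymorphic pseudogene, a label for genes that are disrupted in some strains. It was the most abundant of the 9 transcripts, with a lowest, median and highest value of 100.5, 105.7 and 205.5 nRPKM in PS2APP;Trem2wt and 45.2, 65.6 and 80.6 nRPKM in PS2APP;Trem2ko mice. The highest PS2APP;Trem2ko mouse was lower than the lowest PS2APP;Trem2wt mouse, a separation that held for 1.22% of all genes tested on the scale of normalized counts. The mean was 124.7 ± 37.9 (SD, n = 7) against 65.1 ± 12.1 (SD, n = 6) nRPKM, and the log2 fold change of -0.94 (SE 0.17, 95% interval -1.30 to -0.57, adjusted p = 0.00891 from edgeR) amounted to 1.92-fold lower expression. The highest PS2APP;Trem2wt value came from a female with 79883820 counts, and the next was 131.7 nRPKM. Leaving that female out gave -0.78 (adjusted p = 0.00338 from edgeR). The PS2APP;Trem2wt male with the highest neutrophil marker sum, 264.8 nRPKM, had 127.0 nRPKM of Clec7a, and leaving it out gave a log2 fold change of -0.94 (adjusted p = 0.0202 from edgeR).

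Klrb1b belongs to the NKR-P1 receptors known from natural killer cells, and its product is an inhibitory receptor for a related lectin, Clec2d. It lies on the minus strand of chromosome 6 from 128813706 to 128826331. Its values were low, with a lowest, median and highest of 0.791, 1.28 and 2.27 nRPKM (94 to 523 counts) in PS2APP;Trem2wt and of 0, 0.141 and 0.393 nRPKM (0 to 156 counts) in PS2APP;Trem2ko mice. The groups did not overlap, and the one PS2APP;Trem2ko female with 0 counts had a limit of 3 counts, or 0.0687 CPM. The mean of 1.40 ± 0.59 (SD, n = 7) compared with 0.147 ± 0.139 (SD, n = 6) nRPKM, which is -3.17 in log2 (SE 0.59, 95% interval -4.42 to -1.91, adjusted p = 0.00992 from edgeR), or 8.98-fold lower. In females alone the adjusted p was 0.0514, at a log2 fold change of -3.16. Some 27.2% of the 50-base words of its transcripts are found in other genes too, 25.5% in the overlapping model Gm44511, 3.19% in Klrb1c and 2.97% in Klrb1a, so part of its count is uncertain. Gm44511 was listed at 0 counts in every mouse.

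The neighbouring NKR-P1 genes Klrb1a and Klrb1c are named here because their values were seen. Klrb1c had a mean of 0.319 ± 0.176 (SD, n = 7) against 0.0519 ± 0.0433 (SD, n = 6) nRPKM, with 7 to 157 against 0 to 41 counts per mouse. Its log2 fold change was -2.65 with an SE of 0.72, and the adjusted p was 0.0774 from edgeR, 0.0489 with voom+limma and 0.00492 with DESeq2. Klrb1a had 3 to 72 counts in PS2APP;Trem2wt and 0 to 2 counts in PS2APP;Trem2ko mice, too few for the expression filter. Clec2d, the ligand gene, was also below the filter, at 0.0214 to 0.117 nRPKM in PS2APP;Trem2wt and 0.0581 to 0.247 nRPKM in PS2APP;Trem2ko mice. Of the NK and T cell markers, Ncr1, a natural killer cell gene, was at most 0.113 nRPKM in any mouse. Other genes of the list reached more, Nkg7 up to 3.37, Gzma up to 0.538 and Prf1 up to 0.313 nRPKM. The summed list, which holds Klrb1c and also T cell genes such as Trac, had a median of 1.42 nRPKM in PS2APP;Trem2wt and 3.55 nRPKM in PS2APP;Trem2ko mice. The sum does not measure natural killer cells alone, and their part in the Klrb1b values was not tested.

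Colec12, also called SRCL or collectin placenta 1, is a membrane scavenger receptor with a collagen-like region and a lectin domain, and it is the only one of the 9 genes that is not on chromosome 6. It lies on the plus strand of chromosome 18 from 9707595 to 9882644. The lowest, median and highest values were 2.28, 4.75 and 9.86 nRPKM (326 to 4143 counts) in PS2APP;Trem2wt and 0.116, 0.652 and 1.10 nRPKM (64 to 654 counts) in PS2APP;Trem2ko mice. There was no overlap, and within each genotype the mice spanned a wide range. The PS2APP;Trem2wt mean of 5.53 ± 2.88 (SD, n = 7) nRPKM compared with 0.620 ± 0.377 (SD, n = 6) nRPKM, which is -3.17 in log2 (SE 0.48, 95% interval -4.19 to -2.16, adjusted p = 0.00188 from edgeR), or 9.03-fold lower. Ranked by log2 fold change from the most reduced, Colec12 was 28th, Klrb1b 29th and Clec7a 368th of the 17086 genes tested. The lowest Colec12 value was that of the one PS2APP;Trem2ko male, and the 2 PS2APP;Trem2wt males had a mean of 5.35 nRPKM. Females alone gave -2.96 in log2 (SE 0.42, adjusted p = 0.00445 from edgeR), and the interaction of sex and genotype, with 3 males, was -2.58 (SE 1.02, unadjusted p = 0.0251, adjusted p = 0.551 from edgeR). None of the 9 genes had an adjusted interaction p of 0.05 or less in edgeR or voom+limma, Colec12 being the only one with an unadjusted p of 0.05 or less in edgeR, over a background in which 0.0176% of all genes passed at the adjusted and 7.73% at the unadjusted level.

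**Figure D2:**
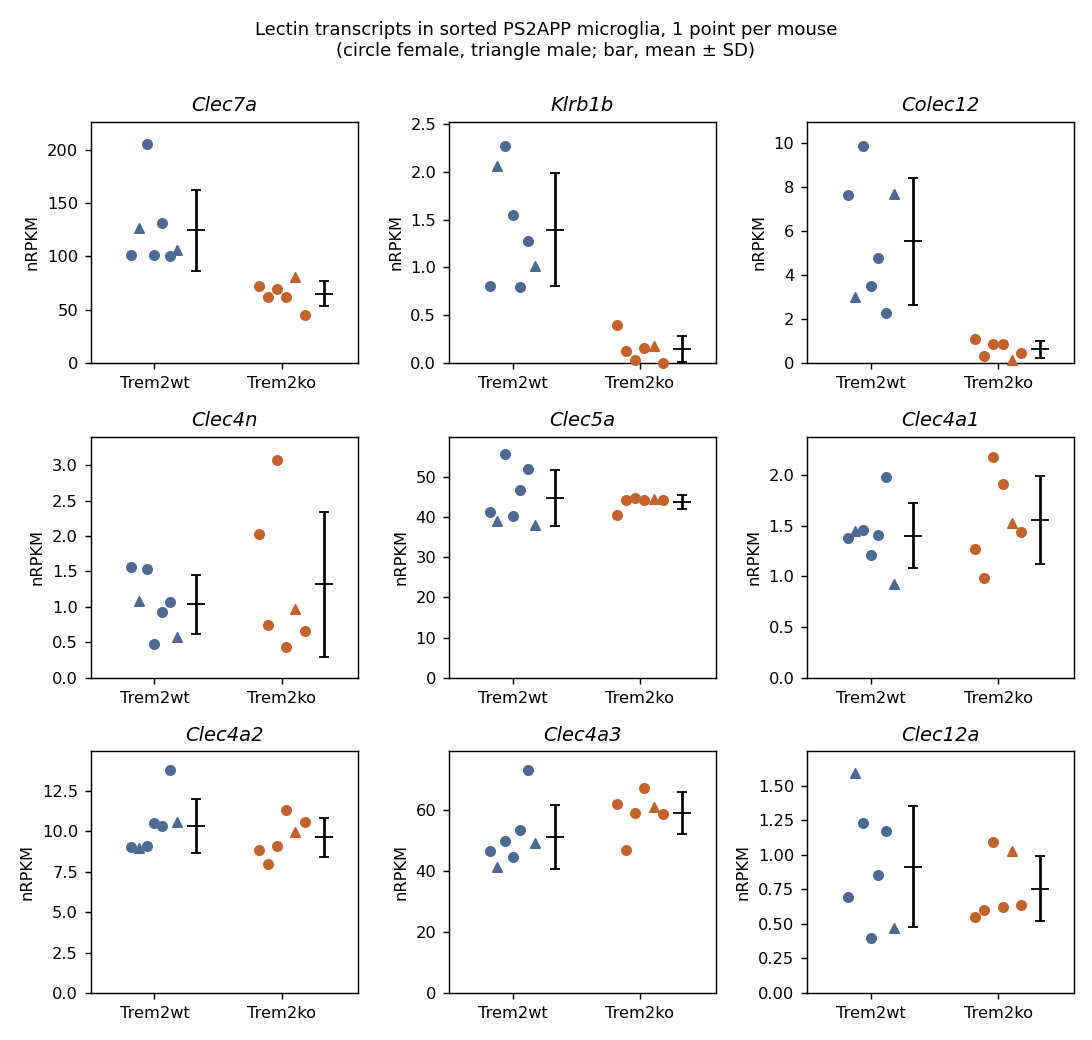
nRPKM (y axis, each panel on its own scale from 0) of the 9 genes in 7 PS2APP;Trem2wt (blue) and 6 PS2APP;Trem2ko (orange) mice, 1 point per mouse, circles for females and triangles for males, with the mean ± SD. The groups are separate for Clec7a, Klrb1b and Colec12 and overlap for the other 6 genes.

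Clec5a and Clec4n encode receptors known to signal through adaptors. Clec5a, or MDL-1, pairs with DAP12, the adaptor that also serves Trem2. It was on chromosome 6 from 40574894 to 40585821, and its lowest, median and highest values were 37.9, 41.3 and 55.7 nRPKM in PS2APP;Trem2wt and 40.4, 44.2 and 44.7 nRPKM in PS2APP;Trem2ko mice. The 6 PS2APP;Trem2ko values lay inside the PS2APP;Trem2wt range, with a log2 fold change of -0.03 (SE 0.09, 95% interval -0.22 to 0.16, adjusted p = 0.907 from edgeR), so that the interval left out a change as large as that of Clec7a. Clec4n, or Dectin-2, recognises mannans and pairs with FcRγ. It was on chromosome 6 from 123229843 to 123247021, at 0.484, 1.07 and 1.56 nRPKM in PS2APP;Trem2wt and 0.442, 0.861 and 3.07 nRPKM in PS2APP;Trem2ko mice (lowest, median and highest). The genotypes overlapped, 2 PS2APP;Trem2ko females stood above every PS2APP;Trem2wt mouse at 2.03 and 3.07 nRPKM, and the log2 fold change of 0.34 had a 95% interval from -0.55 to 1.23 (adjusted p = 0.762 from edgeR). These females also had the highest border macrophage marker sums, 48.3 and 66.2 nRPKM, and the highest dendritic cell marker sums, 14.4 and 25.2 nRPKM, of the 13 mice, and the part of these cells in the Clec4n values was not tested. Without the female at 3.07 nRPKM Clec4n gave -0.08 in log2 (adjusted p = 0.953 from edgeR).

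Clec4a1, Clec4a3 and Clec4a2 lie in this order on the plus strand of chromosome 6, and with Clec4n they span 325.2 kb. Clec4a2 encodes DCIR, an inhibitory receptor of dendritic cells and macrophages, and the other two are its paralogues. Clec4a3 (122952515 to 122969875) was the second most abundant of the 9 transcripts, at 41.1, 49.1 and 72.9 nRPKM in PS2APP;Trem2wt and 46.6, 59.9 and 67.1 nRPKM in PS2APP;Trem2ko mice (lowest, median and highest). The mean was 51.0 ± 10.4 (SD, n = 7) against 59.0 ± 6.8 (SD, n = 6) nRPKM, and the log2 fold change of 0.21 had a 95% interval from -0.04 to 0.46 (adjusted p = 0.438 from edgeR). Clec4a2 (123106428 to 123143999) had 8.96, 10.3 and 13.8 nRPKM against 7.97, 9.51 and 11.3 nRPKM, a log2 fold change of -0.10 (95% interval -0.33 to 0.13, adjusted p = 0.723 from edgeR). Clec4a1 (122921848 to 122934619) had 0.924, 1.41 and 1.98 nRPKM against 0.983, 1.48 and 2.18 nRPKM, a log2 fold change of 0.15 (95% interval -0.29 to 0.58, adjusted p = 0.797 from edgeR). The genotypes overlapped in all 3 genes. Of the 50-base words of Clec4a2, 6.83% were shared with other genes, 3.85% with Clec4a4 and 2.30% with Clec4b1, whereas no word of Clec4a1 or Clec4a3 was shared.

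Clec12a, an inhibitory receptor also known as MICL that recognises uric acid crystals of dead cells, lies on chromosome 6 from 129342691 to 129365303, 96.3 kb from Clec7a and 516.4 kb from Klrb1b. It had 0.397, 0.854 and 1.59 nRPKM (38 to 317 counts) in PS2APP;Trem2wt and 0.551, 0.631 and 1.09 nRPKM (102 to 430 counts) in PS2APP;Trem2ko mice. The groups overlapped, and the log2 fold change of -0.27 (SE 0.31) had a 95% interval from -0.92 to 0.38 (adjusted p = 0.737 from edgeR). The highest of these values was that of the PS2APP;Trem2wt male with the highest neutrophil marker sum, and without that male the log2 fold change was -0.09 (adjusted p = 0.930 from edgeR). That male also had the highest marker sums for monocytes (25.3 nRPKM), endothelial and mural cells (22.5 nRPKM) and fibroblasts (1.12 nRPKM). The PS2APP;Trem2ko female at 1.09 nRPKM had the highest sums for border macrophages (66.2 nRPKM) and dendritic cells (25.2 nRPKM). The part of neutrophils or of any of these other cells in the Clec12a values was not tested. A decrease as large as that of Colec12 or Klrb1b lay outside the 95% interval of each of the 6 genes that did not pass the test, while the intervals of Clec4n, Clec4a1 and Clec12a were wide.

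The order of the levels, which nRPKM allows because it is per length, differed between the genotypes. In PS2APP;Trem2wt microglia Clec7a led at a mean of 124.7 nRPKM and did not overlap with Clec4a3 at 51.0 nRPKM, which overlapped with Clec5a at 44.7 nRPKM. Clec4a2 at 10.3 nRPKM overlapped with Colec12 at 5.53 nRPKM, and Clec4a1, Klrb1b, Clec4n and Clec12a followed between 1.40 and 0.915 nRPKM with overlapping ranges. In PS2APP;Trem2ko microglia Clec7a (65.1 nRPKM) and Clec4a3 (59.0 nRPKM) overlapped, Clec7a being the higher in 4 of 6 mice, and Colec12 and Klrb1b took the last places at 0.620 and 0.147 nRPKM. The 9 transcripts summed to 203.8 to 336.3 nRPKM in PS2APP;Trem2wt and 161.8 to 199.7 nRPKM in PS2APP;Trem2ko mice, and Clec7a made up 40.7% to 61.1% and 27.9% to 40.4% of the sum.

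The size of the difference was not the same for all lectins. The log2 ratio of each gene to Clec7a was taken within each mouse, on nRPKM + 0.1, and compared between the genotypes with an exact permutation test (two-sided, enumerating the 1716 possible splits of the mice), with adjustment over the 8 ratios. The ratio of Colec12 to Clec7a differed by -2.10 in log2 (PS2APP;Trem2ko minus PS2APP;Trem2wt) (exact permutation p = 0.000583, the smallest these splits can give, adjusted p = 0.00233, lower in 6 of 6 PS2APP;Trem2ko mice than in every PS2APP;Trem2wt mouse), and with a pseudocount of 1 by -1.02 (adjusted p = 0.00533, exact permutation test). That of Klrb1b differed by -1.78 (adjusted p = 0.00233, exact permutation test), and with a pseudocount of 1 by -0.13 (adjusted p = 0.412, exact permutation test). With 0.1 added, the Klrb1b ratio was lower in 5 of 6 PS2APP;Trem2ko mice than in every PS2APP;Trem2wt mouse. In the PS2APP;Trem2ko females with 0 and 4 counts of Klrb1b (0 and 0.0300 nRPKM), the added 0.1 exceeded the value itself. The ratios of the other 6 genes to Clec7a were higher in PS2APP;Trem2ko mice, by 0.75 for Clec12a to 1.14 for Clec4a3, with adjusted p-values between 0.00233 and 0.0216 from the exact permutation test. For Clec5a and Clec4a3 the ratios of all 6 PS2APP;Trem2ko mice were above those of all 7 PS2APP;Trem2wt mice. All 8 ratios share Clec7a, which was itself lower, so the higher ratios are not separate results and are not rises of these 6 genes. Their own log2 fold changes in edgeR ran from -0.27 for Clec12a to 0.34 for Clec4n.

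**Figure D3:**
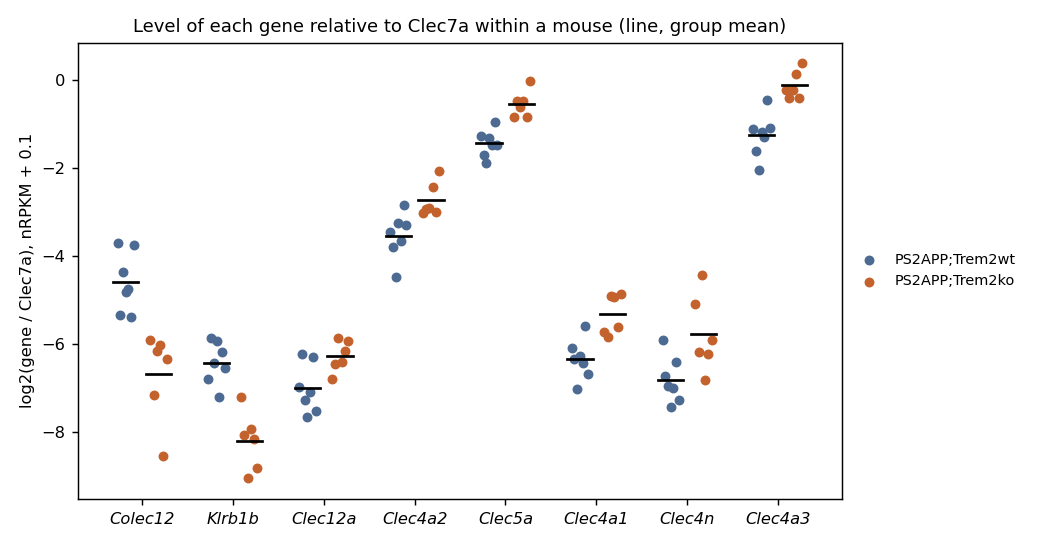
Log2 ratio of each of 8 genes to Clec7a within a mouse (y axis, nRPKM + 0.1), 1 point per mouse, blue for PS2APP;Trem2wt and orange for PS2APP;Trem2ko, with the group mean as a line. The ratios of Colec12 and Klrb1b have lower means in PS2APP;Trem2ko mice, by 2.10 and 1.78, and those of the other 6 genes have higher means.

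Genes whose levels were most like those of the lowered lectins over the 13 mice were found by Pearson's r of log2(nRPKM + 0.1), given here as a description because both genotypes enter it. For Clec7a they were Ptchd1, Fam20c and Ptger4, with r of 0.973, 0.954 and 0.952. For Colec12 they were Cited4, Bambi and Pianp, with r of 0.954, 0.952 and 0.947. For Klrb1b they were Lpl, Tmem163 and Baiap2l2, with r of 0.955, 0.951 and 0.951. With each genotype's mean removed, r was 0.84 to 0.92 for the 3 genes beside Clec7a, 0.72 to 0.82 beside Colec12 and 0.70 to 0.75 beside Klrb1b. The genes were picked for their high r in these same mice, so the choice can raise these values too. Among the 9 lectins themselves, the deviations from the genotype means were most alike for the chromosome 6 neighbours Clec4a3 and Clec4a2, with r of 0.84. The same PS2APP;Trem2wt female had the highest value of both genes, 72.9 and 13.8 nRPKM, and its share in this r was not tested.

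In the list of 61 other C-type lectin receptors, 32 passed the expression filter, 12 leaned lower and 20 leaned higher, and edgeR called 0 of them in either direction. At an unadjusted p of 0.05 or less 3 were lower (Klrb1c, Mrc2 and Cd302) and 1 was higher (Clec4a4), voom+limma called 1 lower and DESeq2 called 2 lower, and over all genes tested 7.56% were lower and 7.29% higher at the unadjusted level. The median log2 fold change of the list was 0.18. By the mean over all 13 mice, the 3 most abundant members of the list were Cd302, Mrc2 and Cd72. Cd302 was at 54.0 ± 5.0 (SD, n = 7) against 47.0 ± 3.6 (SD, n = 6) nRPKM (log2 fold change -0.20, adjusted p = 0.193 from edgeR), and Mrc2, an endocytic collagen receptor, at 22.5 ± 6.5 (SD, n = 7) against 15.9 ± 2.7 (SD, n = 6) nRPKM (log2 fold change -0.50, adjusted p = 0.147 from edgeR). Cd72 was at 9.09 ± 3.09 (SD, n = 7) against 7.39 ± 2.82 (SD, n = 6) nRPKM (log2 fold change -0.30, adjusted p = 0.609 from edgeR). Of 11 other collectins and soluble C-type lectins, 1 passed the filter, Clec11a, with a log2 fold change of -0.14 (adjusted p = 0.909 from edgeR).

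Of 26 genes of lectin receptor signalling, all passed the filter, 1 (Tyrobp) was lower and 0 were higher, and the median log2 fold change was -0.03. With no adjustment for the number of genes, 3 (Tyrobp, Hcst and Rela) were lower and 1 (Btk) was higher at a p of 0.05 or less. Hcst, which encodes the adaptor DAP10, was at a mean of 18.3 against 13.2 nRPKM, with the log2 fold change at -0.48 (95% interval -0.83 to -0.13, adjusted p = 0.172 from edgeR). Tyrobp, the DAP12 adaptor of Trem2 and Clec5a, was measured at 1542.4 to 2196.5 nRPKM in PS2APP;Trem2wt and 1124.4 to 1634.9 nRPKM in PS2APP;Trem2ko mice, 5 of 6 of which were below every PS2APP;Trem2wt mouse. Its mean was 1826.9 ± 231.1 (SD, n = 7) against 1312.1 ± 191.0 (SD, n = 6) nRPKM, and the difference was -0.48 in log2, SE 0.10 (adjusted p = 0.0202 from edgeR, 0.0709 at most over the alternatives). Fcer1g, the adaptor of Clec4n, had a log2 fold change of -0.09 (95% interval -0.29 to 0.12), Syk of 0.06 (-0.12 to 0.23), Card9 of 0.12 (-0.31 to 0.55) and the phosphatase gene Ptpn6 of -0.01 (-0.19 to 0.17). Of 17 scavenger receptors set beside Colec12, 13 passed the filter and 0 passed the test in either direction in edgeR. At an unadjusted p of 0.05 or less in edgeR, 2 were lower and 1 was higher, beside the same 7.56% and 7.29% of all genes. At the adjusted level voom+limma called 0 and DESeq2 called 1. Their median log2 fold change was -0.13.

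**Figure D4:**
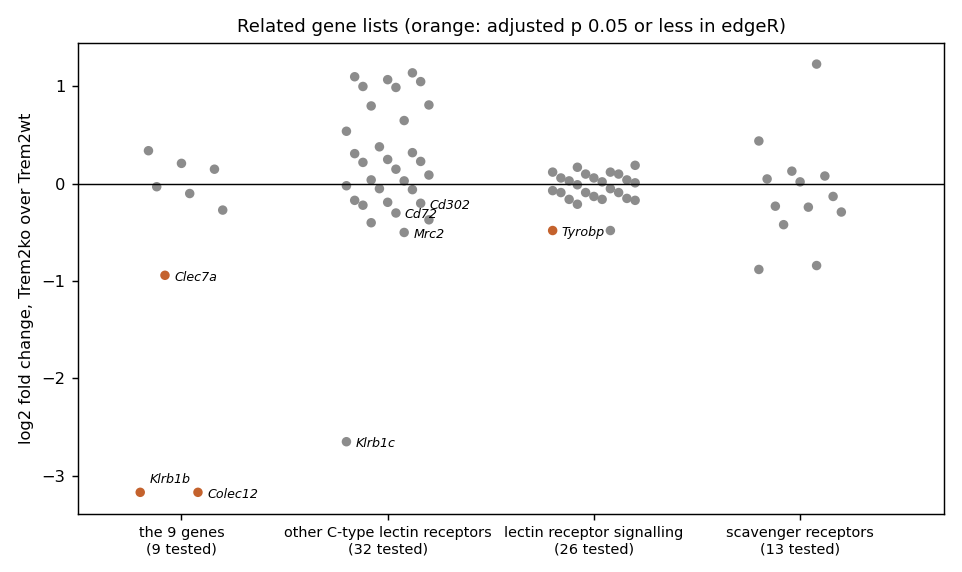
Log2 fold changes (y axis, edgeR) of the 9 lectins and of the tested genes of 3 related lists, 1 point per gene, orange where the adjusted p is 0.05 or less. Clec7a, Klrb1b, Colec12 and Tyrobp are orange, and Klrb1c at -2.65 is the lowest grey point.

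The stretches before the start sites of Clec7a, Klrb1b and Clec5a are given to set the lowered lectins of chromosome 6 beside a lectin whose log2 fold change was near 0, each 5′ to 3′ on the gene's own strand, from RefSeq on GRCm38.p6. Capitals mark GAGGAA or its reverse complement, the core letters of sites for PU.1, a transcription factor of the macrophage lineage. The stretches end before the span that GENCODE M21 gives the gene, and are chr6:129472786-129473035, chr6:128826332-128826565 and chr6:40585822-40586055, all on the minus strand.
Clec7a: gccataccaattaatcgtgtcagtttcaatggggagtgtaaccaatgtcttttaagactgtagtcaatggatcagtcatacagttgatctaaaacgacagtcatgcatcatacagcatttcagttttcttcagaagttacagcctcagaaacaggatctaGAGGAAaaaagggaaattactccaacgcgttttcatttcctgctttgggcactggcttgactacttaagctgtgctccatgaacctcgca
Klrb1b: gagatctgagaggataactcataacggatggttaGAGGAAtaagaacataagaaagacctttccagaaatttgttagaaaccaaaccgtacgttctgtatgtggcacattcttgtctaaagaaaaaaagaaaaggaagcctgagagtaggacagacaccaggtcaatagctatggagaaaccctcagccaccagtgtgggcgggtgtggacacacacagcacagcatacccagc
Clec5a: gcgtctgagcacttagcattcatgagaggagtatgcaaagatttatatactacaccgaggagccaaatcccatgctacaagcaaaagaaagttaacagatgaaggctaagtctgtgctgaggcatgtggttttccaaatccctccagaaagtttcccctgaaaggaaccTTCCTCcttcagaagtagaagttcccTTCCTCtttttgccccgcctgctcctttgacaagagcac
In Clec7a the motif began 90 bases before the RefSeq start site, in Klrb1b 216 bases before it, and in Clec5a 81 and 55 bases before it. Promoter windows were at hand for 7 of the 8 lectins of chromosome 6, all but Clec4n, and 6 of the 7 held GAGGAA on either strand in at least 1 window of 250 bases, against 25.9% of all 27025 genes with such a window. Counted by window, 8 of the 10 windows of these lectins held it, against 23.3% of all 32851 windows, and windows of 1 gene overlap. Both lowered genes of chromosome 6 and 4 genes that did not pass the test held it, so the letters did not separate these genes. The lowered gene Colec12, which is not on chromosome 6, was not searched. AP-1 (TGANTCA) and C/EBP (TTGCNNAA) letters were found in Clec12a alone, against 7.82% and 10.8% of all genes, and the E-box CACGTG in 0 of the 7, against 6.86%. A match is a string of letters and not a bound site.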

How the data were processed

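RNA-Seq libraries of sorted myeloid cells from 13 mice were analysed, grouped by the genotype label. Per the methods, 1 mouse of each genotype was usually taken through dissociation and sorting side by side; the labels do not give these pairs, so the fits are unpaired. Per the labels and methods, single-end reads were cleaned of adapter, poor-quality and ribosomal sequence and mapped to GRCm38 with GSNAP. For each mouse the authors deposited raw counts (reads that map to 1 gene model only) and nRPKM, which is RPKM scaled by a size factor. Whether counting used the strand, and tool versions, are not given in the sources used here. Names and coordinates are from GENCODE M21.

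Counts, 26120961 to 120569609 per mouse, were tested with edgeR 4.0.16 (R 4.3.3): filterByExpr by genotype, TMM scaling, glmQLFit and glmQLFTest, no covariate. The standard error is the size of the log2 fold change divided by the square root of F, and intervals are 95% on its degrees of freedom. The limit of detection was 3 counts and covers counting error only. No 2 of the 36 pairs of mice of one genotype differed by sampling noise alone (chi-square per degree of freedom at least 18.1). Ratios to Clec7a were compared by exact permutation in Python 3.11.15. Shared reads were estimated from 50-base transcript words on either strand.

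The 9 genes, the gene lists and the tests were chosen with earlier results of these data known. Named from the lists are genes that passed the test, the 3 most abundant other lectin receptors and the 3 genes most alike to Clec7a, Colec12 and Klrb1b. Names outside this rule were chosen after their values were seen. Each mouse was left out in turn, and further alternatives changed the tool (limma 3.58.1 with voom or on the log2 of nRPKM with 0.1 or 1 added, DESeq2 1.42.0), the scaling (RLE, or thinning to the smallest library), the filter (none, or 10 counts in 6 mice) and the mice or model (females alone, or a sex term). Tests were first run on simulated counts with known fold changes. Protein sequences were not used here.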

Additional observations from a re-analysis of the deposited data

Results flagged for a closer look

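Within a genotype, 4 of the 18 groups of values (9 genes in 2 genotypes) held a mouse far from the others by Dixon's criterion, which chance meets in about 1 of 20 groups. For Clec7a it was the PS2APP;Trem2wt female at 205.5 nRPKM, with the next mouse at 131.7 and the lowest at 100.5 nRPKM. For Clec5a it was a PS2APP;Trem2ko female at 40.4 nRPKM, below 5 mice between 44.2 and 44.7 nRPKM. For Clec4a3 and Clec4a2 it was 1 and the same PS2APP;Trem2wt female, at 72.9 nRPKM with the next mouse at 53.4 nRPKM, and at 13.8 nRPKM with the next at 10.6 nRPKM.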

How the results depend on the processing

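Clec7a, Klrb1b and Colec12 passed the test in edgeR and the other 6 lectins did not, under each of the 23 alternatives except in females alone, where Klrb1b did not pass (adjusted p = 0.0514). Over these alternatives the log2 fold change ranged from -1.05 to -0.78 for Clec7a, from -3.74 to -1.03 for Klrb1b and from -3.57 to -1.92 for Colec12, the smallest sizes for Klrb1b and Colec12 being those of limma on log2(nRPKM + 1). The sign of Clec5a turned to 0.02 and 0.00 without the PS2APP;Trem2wt females with 55.7 and 52.0 nRPKM, and that of Clec4n to -0.08 without the PS2APP;Trem2ko female with 3.07 nRPKM (with a mouse left out, the range was -0.07 to 0.02 for Clec5a and -0.08 to 0.52 for Clec4n); the cause was not tested. Of the other C-type lectin receptors, 1 was lower with voom+limma, with limma on log2(nRPKM + 0.1) or log2(nRPKM + 1) and with thinned counts (Klrb1c each time), 1 with no filter (Klrb1a), and 2 with DESeq2 (Klrb1c and Mrc2). Of the scavenger receptors 1, Scarb1, was lower with DESeq2. With each mouse left out in turn, 0 to 1 of the scavenger receptors were lower (Scarb1 without the PS2APP;Trem2ko male) and 0 to 1 of the signalling genes, Tyrobp in 11 of 13 fits, and 0 in females alone. Tyrobp lost the call without the PS2APP;Trem2ko females with 61.5 or 45.2 nRPKM of Clec7a. The ratio of Clec4n to Clec7a in females alone had an adjusted p of 0.0635 in the exact permutation test. Thinning every library to the smallest left the SE of the log2 fold change at 0.43 for Clec4n (0.42 before), 0.33 for Clec12a (0.31), 0.22 for Clec4a1 (0.20) and 0.56 for Klrb1b (0.59). No paired analysis was possible because the labels do not say which mice were handled as a pair.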
